A study of Homo sapiens with 4 samples.

Results

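EIF5A, its close relative EIF5A2, the enzymes that make hypusine and the enzymes and regulators of polyamine metabolism were followed probe set by probe set in HEK293, an established line of human embryonic kidney cells. A probe set is a group of short array probes read together as 1 signal for a transcript. The 10 genes were EIF5A, EIF5A2, DHPS, DOHH, ODC1, OAZ1, AZIN1, SRM, SAT1 and AMD1. Every probe set whose annotation names exactly 1 of them was taken, which gave 24 of the 41097 probe sets that name 1 gene and covered all 10 genes of the 19775 named. The genes were chosen by their known roles together with their differences between the glucose conditions, above all the unequal differences of the EIF5A probe sets. Those differences are therefore given as a description, with no test. A further probe set names SAT1 beside another gene and was left out.

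High glucose here means HEK293 grown in DMEM at 450 mg/dl glucose for 7 days, and low glucose the same cells and time at 100 mg/dl, with 2 arrays each. Both media contained fetal calf serum, and no other agent or genetic change is named for either group. Each array is a biological replicate per the labels, but whether cultures were split early or late is not stated, so errors and p-values cover only the spread between these samples. As a model, the design holds 1 cell line, 1 culture time and 2 glucose levels.

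eIF5A is the protein known to carry hypusine, an unusual amino acid made on 1 of its lysines. The polyamine spermidine supplies the building block: DHPS transfers part of spermidine onto the lysine and DOHH then hydroxylates it. Hypusinated eIF5A helps ribosomes through stretches that are slow to translate, proline runs among them, and aids termination. Polyamines are made from ornithine by ODC1. AMD1 supplies the decarboxylated S-adenosylmethionine from which SRM builds spermidine, and SAT1 acetylates spermidine and spermine for breakdown or export. OAZ1, antizyme, directs ODC1 to the proteasome, and AZIN1 binds antizyme and so protects ODC1.

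Signals are linear intensities scaled by the authors to the same trimmed mean, so a shift shared by most transcripts cannot be seen. Median signals lay between 33.3 and 38.7 on the 4 arrays. The 24 probe sets for bacterial poly-A transcripts are controls meant to be spiked in ahead of the labelling step. They read above the low glucose arrays on both high glucose arrays (median 1.94 log2 units). Their median signals were 151 and 139 on the high glucose arrays. On the low glucose arrays these were 38.1 and 44.1, near the median signals of those arrays. The 6 ribosomal RNA probe sets differed in the same direction (median 1.73 log2 units). The 18 hybridisation controls had a median of 486 on high glucose replicate 1 against 869 to 891 on the other arrays. The part of these differences in the results below was not tested. Of 6 measured genes fixed as HEK293 markers 4 passed the filter on dim signals, while all 4 leukocyte markers lay below it. NEFL read 1179 to 1442 over the 4 arrays and PAX2 34.6 to 54.7, without passing the test. LIN28B was higher in high glucose, at 1089.5 and 1099 against 475 and 435, and the dim EYA1 was lower, at 35.8 and 25.1 against 55.4 and 66.4 (limma adjusted p = 1.9e-05 and 0.027). In the fibroblast and endothelial lists 1 of 5 and 1 of 4 passed. The fibroblast gene COL1A1 was higher in high glucose, at 319 and 313 against 228 and 204, and made up most of the summed fibroblast signal of 375 and 369 against 268 and 299. The other 4 fibroblast genes lay below the filter, with log2 differences of both signs (-1.15 to 0.23). The part of these marker differences in the results was not tested.

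EIF5A, the translation factor itself, was higher in high glucose on all of its 3 probe sets, but by very different amounts. The brightest, 201123_s_at, read 1714 and 1704 on the high glucose arrays and 89.9 and 89.6 on the low glucose arrays. Replicates were nearly equal and the groups lay far apart. The difference was 4.25 ± 0.07 log2 units (SE from the fit, n = 2 per group), or 19.0-fold. The second, 201122_x_at, read 483 and 541 in high glucose against 131 and 82.9 in low glucose. These groups did not overlap either, although the low glucose arrays differed more from each other, and the difference was 2.29 ± 0.21 log2 units, or 4.90-fold. The third, 213753_x_at, read 169 and 271 in high glucose against 143 and 169 in low glucose. Here high glucose replicate 1 lay within the range of the low glucose arrays, and the difference was 0.46 ± 0.22 log2 units.

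Among the 27307 probe sets tested, these differences held places 6, 73 and 5362 when ordered from the largest rise. They spanned 3.79 log2 units within 1 gene. Of the 6255 genes with more than 1 tested probe set, 5 had a wider span, and the median span was 0.51 log2 units. Of the 1660 genes with exactly 3 tested probe sets, 0 had a wider span than EIF5A. These places and spans are a description only, since EIF5A was chosen with its unequal probe set differences known. The difference of the first lay above those of all 24 poly-A spikes (1.09 to 3.10 log2 units), that of the second within their range and that of the third below it. On this array design an _x_at name marks probes that can match other transcripts and an _s_at name marks probes shared by several transcripts. EIF5AL1, a near-identical gene copy, has no probe set here that names it alone, and how far each EIF5A probe set also reads such copies was not tested.

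**Figure D1:**
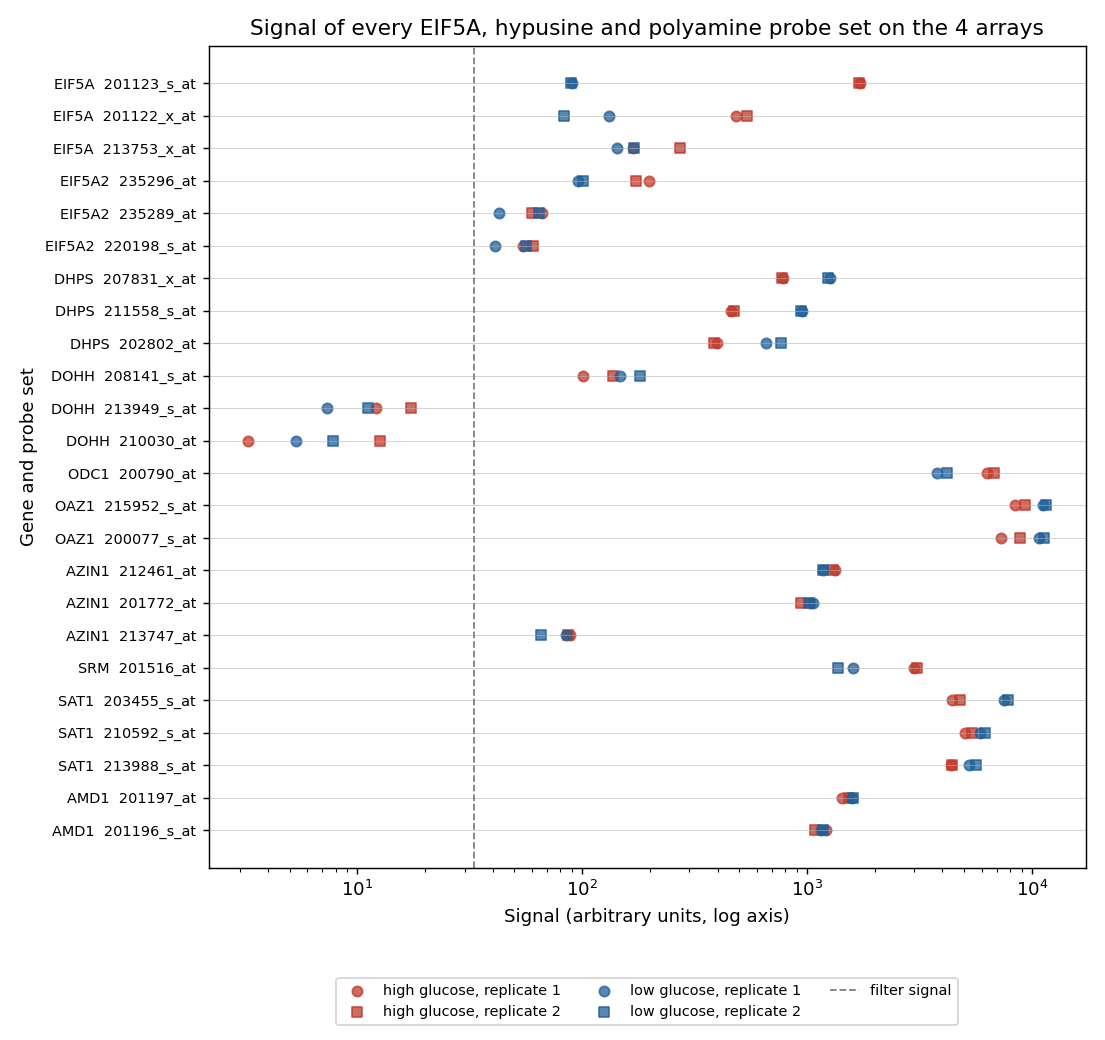
Signal of the 24 probe sets (rows) on each of the 4 arrays, on a log axis in arbitrary units; red is high glucose, blue is low glucose, circles are replicate 1, squares are replicate 2, and the dashed line is the filter signal of 32.9. The brightest EIF5A probe set reads 1714 and 1704 in high glucose against 89.9 and 89.6 in low glucose, while 213753_x_at overlaps between the groups.

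EIF5A2, the second gene for this factor and one with a more restricted tissue range, was also higher in high glucose in its brightest probe set. That probe set, 235296_at, read 199 and 174 in high glucose against 96.1 and 101 in low glucose. The groups were well apart, with a difference of 0.92 ± 0.15 log2 units. The other two probe sets were dim and overlapped. In 235289_at the arrays read 66.1 and 59.5 against 42.7 and 64.2, and in 220198_s_at 54.3 and 60.4 against 41.0 and 56.0, with log2 differences of 0.26 ± 0.28 and 0.26 ± 0.27. In both, low glucose replicate 1 was the lowest array, and without it the difference of 235289_at was -0.03.

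DHPS, deoxyhypusine synthase, went the other way from EIF5A, and its 3 probe sets gave similar sizes. In 207831_x_at the high glucose arrays read 781 and 773 and the low glucose arrays 1271 and 1245. In 211558_s_at they read 460 and 474 against 954 and 945. In 202802_at they read 397 and 387 against 660 and 769. Both high glucose arrays lay below both low glucose arrays in each probe set. The log2 differences were -0.70 ± 0.06, -1.02 ± 0.06 and -0.86 ± 0.09, equal to signals 1.62-fold, 2.03-fold and 1.82-fold lower in high glucose. The span between the probe sets was 0.33 log2 units, against 3.79 for EIF5A.

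DOHH, deoxyhypusine hydroxylase, had 1 probe set above the filter. That one, 208141_s_at, read 101 and 138 in high glucose against 148 and 180 in low glucose. The groups were just separate, but the spread within them was wide and the difference was -0.47 ± 0.19 log2 units. The remaining 2 probe sets lay below the filter, with 12.1 and 17.3 against 7.35 and 11.1 in 213949_s_at and 3.28 and 12.7 against 5.33 and 7.76 in 210030_at. Signals this low were not shown to be above background, and they were not tested.

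ODC1, ornithine decarboxylase, was higher in high glucose. Its single probe set, 200790_at, read 6326 and 6749 in high glucose against 3793 and 4211 in low glucose. The groups were well separated, by 0.71 ± 0.08 log2 units or 1.63-fold. OAZ1, the antizyme that targets ODC1 for degradation, was lower in high glucose in both of its probe sets. In 215952_s_at the arrays read 8438 and 9282 against 11226 and 11509, and in 200077_s_at 7257 and 8811 against 10771 and 11282. High glucose replicate 1 was the lowest array in both. The log2 differences were -0.36 ± 0.08 and -0.46 ± 0.11, but after quantile normalization the first turned to 0.09 and the second shrank to -0.10, so the direction of the first depends on the normalization.

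AZIN1, the antizyme inhibitor, showed small differences of mixed sign. In 212461_at the arrays read 1326 and 1298 in high glucose against 1173 and 1174 in low glucose, and in 201772_at they read 1031 and 944 against 1064 and 1020. The first pair of groups was separate and the second overlapped, with log2 differences of 0.16 ± 0.06 and -0.08 ± 0.07, the latter turning to 0.09 after median centring. The dim probe set 213747_at read 88.0 and 86.5 against 85.0 and 65.7, a difference of 0.22 ± 0.21 set mainly by low glucose replicate 2.

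SRM, spermidine synthase, was higher in high glucose by the largest amount among the polyamine enzymes. Its probe set, 201516_at, read 2976 and 3068 in high glucose against 1605 and 1367 in low glucose. The groups lay well apart, by 1.03 ± 0.08 log2 units or 2.04-fold. AMD1, which supplies the aminopropyl donor for SRM, hardly differed. Its probe set 201197_at read 1434 and 1538 against 1589 and 1606, and 201196_s_at read 1208 and 1084 against 1151 and 1174. The log2 differences were -0.11 ± 0.06 and -0.02 ± 0.07, and both changed sign after median centring (0.06 and 0.15).

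SAT1, the acetyltransferase that starts polyamine breakdown, was lower in high glucose in all of its 3 probe sets. In 203455_s_at the arrays read 4394 and 4790 against 7477 and 7838. In 213988_s_at they read 4356 and 4430 against 5272 and 5641. In 210592_s_at they read 5026 and 5409 against 5873 and 6171. Both high glucose arrays were below both low glucose arrays each time. The log2 differences were -0.74 ± 0.08, -0.31 ± 0.07 and -0.21 ± 0.07, so the probe sets shared a direction and spanned 0.53 log2 units. After median centring they shrank to -0.57, -0.14 and -0.04.

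**Figure D2:**
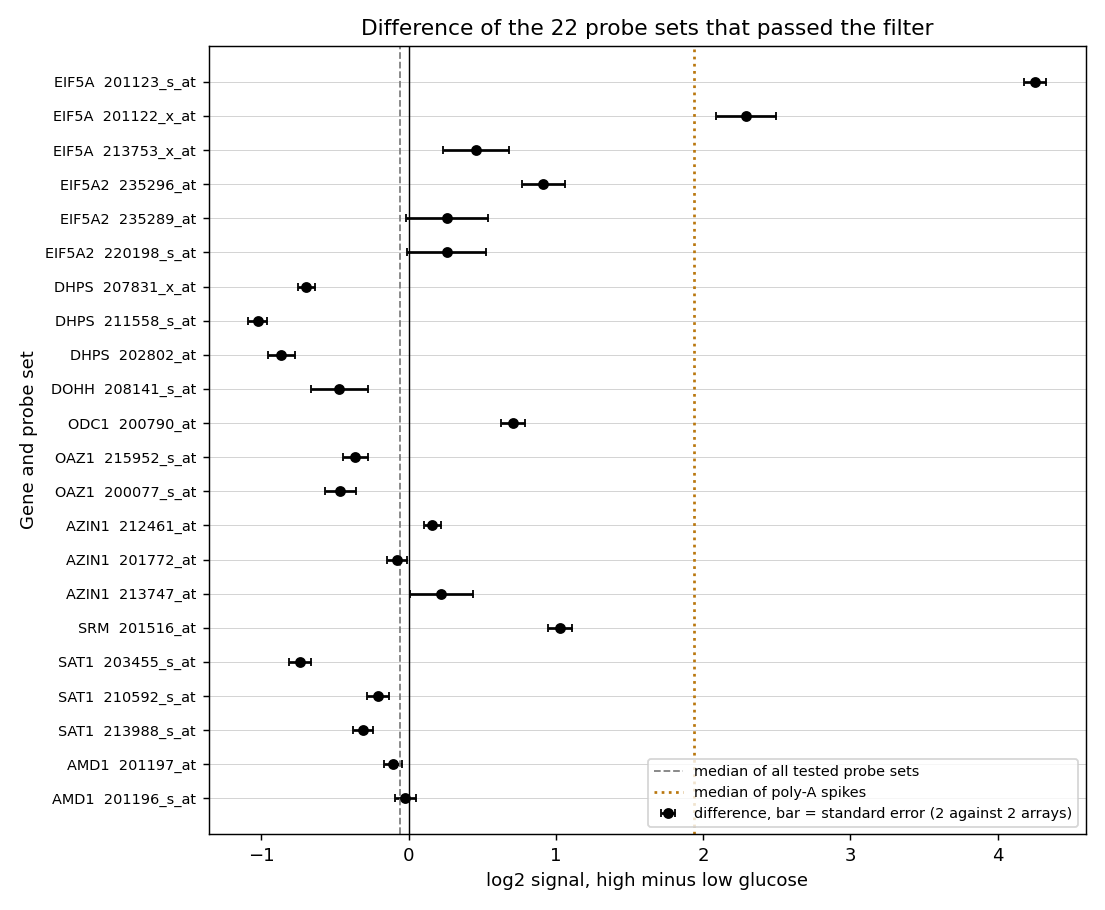
Difference in log2 signal, high minus low glucose, for the 22 probe sets that passed the filter, with bars for the standard error over 2 against 2 arrays. The dashed line is the median of all tested probe sets (-0.06) and the dotted line that of the poly-A spikes (1.94); only the EIF5A points at 4.25 and 2.29 lie to the right of the dotted line.

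Across the tested table, limma called 13759 of 27307 probe sets (50.4%) at an adjusted p under 0.05, with 23.1% higher and 27.2% lower in high glucose. Higher probe sets made up 45.9% of the calls with the authors' scaling and 63.0% after median centring, which moved the median difference from -0.06 to 0.11 log2 units. Of the 24 probe sets described here 22 passed the filter. Their median difference was -0.05 log2 units, beside -0.06 for all tested. The groups were apart in 17 of the 22, beside 76.8% of all tested probe sets. Nothing is read from these counts, since the genes were chosen with this contrast known.

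**Figure D3:**
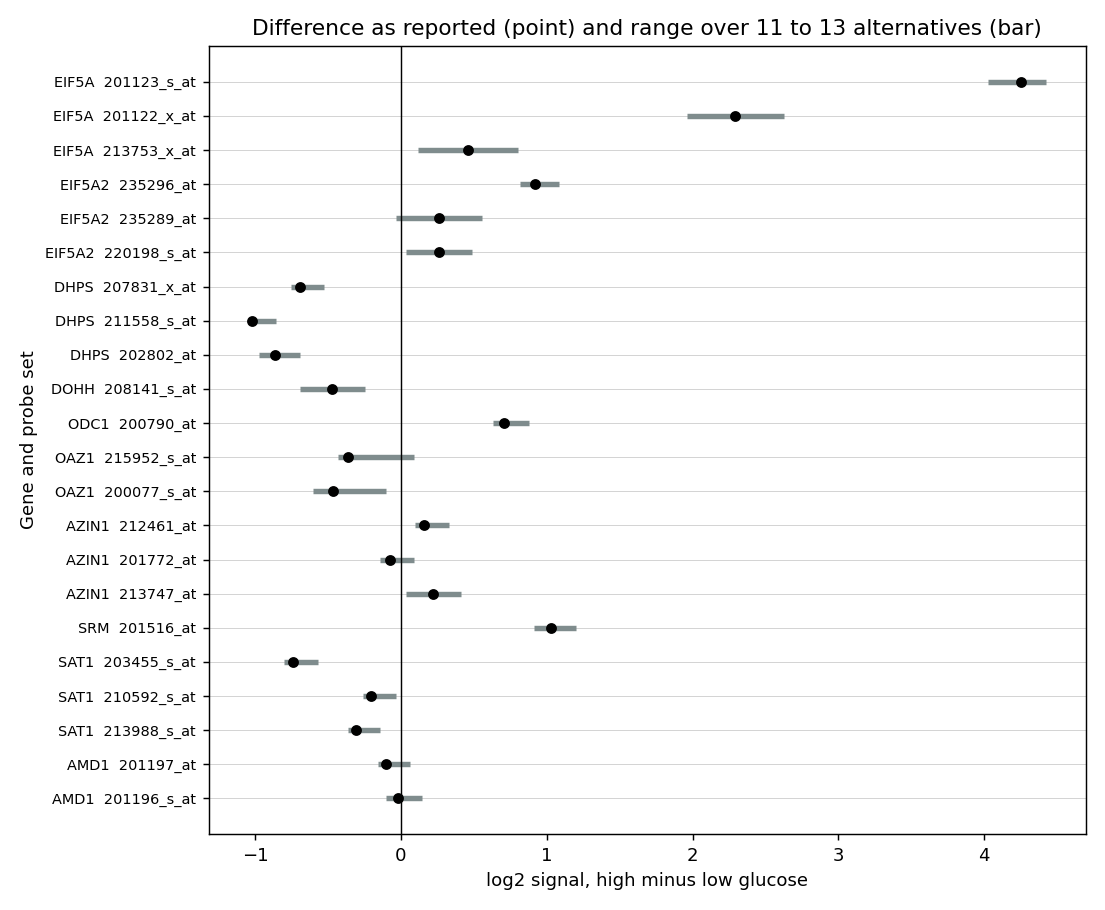
Difference in log2 signal, high minus low glucose, as reported (points) and its range over the 11 to 13 alternative settings that gave it a value, by normalization, filter, fit and left-out arrays (grey bars), for the 22 probe sets that passed the filter. The brightest EIF5A probe set stays between 4.03 and 4.42, ODC1 between 0.63 and 0.88 and SRM between 0.91 and 1.20, while the bars of AMD1, AZIN1 201772_at, EIF5A2 235289_at and OAZ1 215952_s_at cross 0.

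The lists of other genes were set by role with earlier results of these data known, and their p-values carry that limit. Each gene was read from its brightest probe set. The other polyamine genes had 12 tested members, of which 1 rose, 5 fell and 6 did not pass. Over all 12242 genes tested in this way 23.8% were called higher and 32.6% lower. The median difference was -0.13 log2 units in the list and -0.10 over all genes. The member that fell furthest was SLC3A2, a heavy chain of amino acid transporters that has also been tied to polyamine export. It read 1085 and 1157 in high glucose against 5642 and 5940 in low glucose (-2.37 ± 0.07 log2 units, limma adjusted p = 1.4e-06). ARG2, the mitochondrial arginase that makes ornithine, fell by 1.28 ± 0.11 log2 units (adjusted p = 1.2e-04), from 690 and 667 in low glucose to 312 and 249. Its second probe set, with a log2 difference of -0.09, did not pass.

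AZIN2, a relative of the antizyme inhibitor, fell by 0.73 ± 0.14 log2 units (adjusted p = 0.0047), and SMS, spermine synthase, fell by 0.37 ± 0.08 (adjusted p = 0.0073). SMS read 4720 and 5286 in high glucose against 6323 and 6556 in low glucose, opposite in direction to SRM, the enzyme before it in the pathway. The call of SMS was lost without low glucose replicate 2 (-0.34) and after median centring (-0.20). SAT2, which resembles SAT1 in sequence, fell by 0.44 ± 0.07 (adjusted p = 0.0014). SLC18B1, a vesicular polyamine transporter, rose by 0.32 ± 0.07 (adjusted p = 0.0088). The oxidases SMOX and PAOX stood at 0.04 ± 0.14 and 0.05 ± 0.13, and the antizyme OAZ2 at 0.01 ± 0.06, without passing. The same held for OAZ3, at -0.17 ± 0.32. A dimmer tested probe set of SMOX stood at -1.41 ± 0.52 and dimmer ones of PAOX at -0.29 and 0.33, also without passing. The lysosomal polyamine exporter ATP13A2 stood at 0.18 ± 0.08 and did not pass. Its relative ATP13A3 stood at -0.10 in its brightest probe set, whereas its other probe set rose by 0.75 (adjusted p = 0.0045). ARG1 and AGMAT lay below the filter.

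In the list of S-adenosylmethionine supply and methionine salvage, which recycles the by-product of SRM, 3 of 8 genes rose and 3 fell, with a median difference of -0.02 log2 units, beside 23.8%, 32.6% and -0.10 over all genes. APIP and MRI1, enzymes of consecutive early steps of the salvage path, rose by 0.58 ± 0.07 and 0.52 ± 0.06 log2 units (adjusted p = 5.2e-04 and 3.1e-04), and ENOPH1 rose by 0.24 ± 0.07 (adjusted p = 0.029). ADI1, which acts after ENOPH1, fell by 0.32 ± 0.06 (adjusted p = 0.0033). MAT2A and MAT2B, the catalytic and regulatory subunits that make S-adenosylmethionine, fell by 0.29 ± 0.06 and 0.24 ± 0.06 (adjusted p = 0.0072 and 0.018). After median centring, none of these 3 falls was called by limma, and 0 of them had an unadjusted p under 0.05. The call of MAT2B was also lost without low glucose replicate 2 (-0.18), and that of ENOPH1 without either high glucose array (0.23 and 0.25) or low glucose replicate 1 (0.15). MTAP, the first salvage enzyme, and AHCY stood at -0.01 ± 0.15 and -0.03 ± 0.06 and did not pass. Dimmer tested probe sets of MTAP stood at 0.01 to 0.44, and the dimmer one of MRI1 at 0.14, also without passing.

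Of 4 measured genes that handle eIF5A protein, 3 fell in high glucose and 0 rose, beside 32.6% and 23.8% of all genes. Their median difference was -0.54 log2 units, beside -0.10. HDAC6 and SIRT2, deacetylases reported to act on eIF5A, fell by 1.02 ± 0.09 and 0.47 ± 0.08 log2 units (adjusted p = 1.3e-04 and 0.0028). KAT2B, an acetyltransferase for it, fell by 0.62 ± 0.16 (adjusted p = 0.014), a call lost without high glucose replicate 2, where the difference was -0.46. XPO4, its nuclear export receptor, stood at 0.18 ± 0.12 and did not pass. The dimmer XPO4 probe set stood at 0.96 ± 0.36, also without passing (limma adjusted p = 0.059). A second probe set of SIRT2 stood at 0.37 and did not pass.

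**Figure D4:**
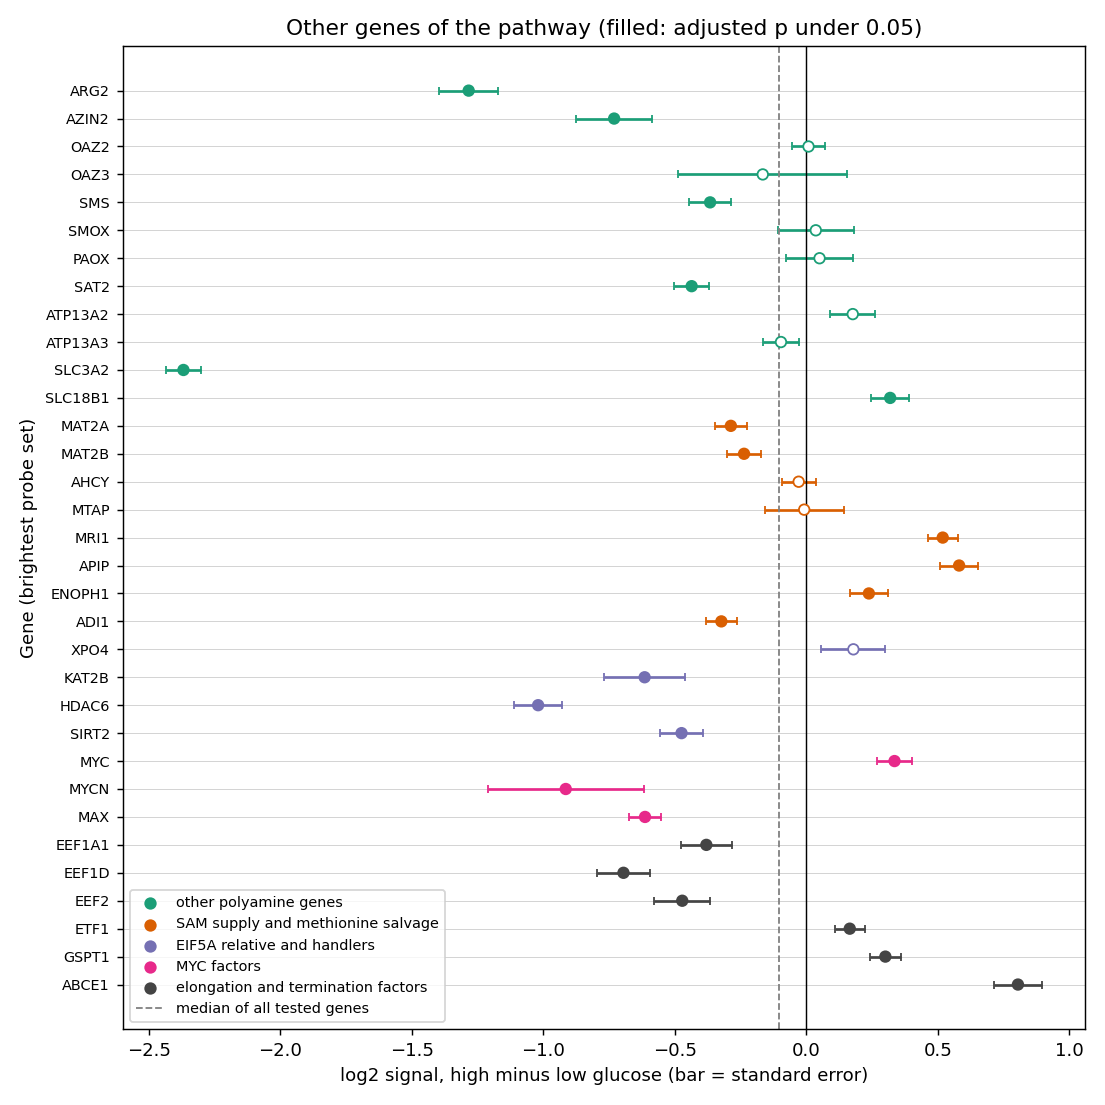
Difference in log2 signal, high minus low glucose, of the other pathway genes in their brightest probe set, with standard error bars over 2 against 2 arrays; colours mark the lists, filled points passed the test (limma adjusted p under 0.05) and the dashed line is the median of all tested genes (-0.10). SLC3A2 is farthest to the left at -2.37 and ABCE1 farthest to the right at 0.80.

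Elongation and termination factors, which act beside eIF5A on the ribosome, went both ways, with 3 of 6 measured genes falling and 3 rising, beside 32.6% and 23.8% of all genes, and a median difference of -0.11 log2 units. The elongation factors EEF1A1, EEF1D and EEF2 fell by 0.38 ± 0.10, 0.70 ± 0.10 and 0.47 ± 0.11 log2 units (adjusted p = 0.014, 0.0012 and 0.0089). In their brightest probe sets, however, EEF1A1 and EEF2 turned to 0.09 and 0.02 after quantile normalization and were not called. Without low glucose replicate 2 neither was called (-0.36 and -0.42), nor was EEF1A1 without low glucose replicate 1 (-0.40). ETF1 and GSPT1, the release factors, and ABCE1, which recycles ribosomes, rose by 0.16 ± 0.06, 0.30 ± 0.06 and 0.80 ± 0.09 (adjusted p = 0.048, 0.0049 and 3.5e-04). The call of ETF1 was lost without any 1 of the 4 arrays, at differences of 0.15 to 0.18. For GSPT1, the second brightest probe set was also called higher, at 0.44, while 2 dimmer ones were called lower, at -0.19 and -0.43. All 6 EEF1A1 probe sets were called lower with the authors' scaling. A far dimmer one read 532 and 522 in high glucose against 1316 and 1271 in low glucose (-1.30 ± 0.06, limma adjusted p = 1.1e-05). The second EEF2 probe set was also called lower, at -0.56 (limma adjusted p = 0.0026). The second brightest of EEF1D was called lower, at -0.66, but its dimmer ones, at -0.11 and 0.05, did not pass. These other probe sets were not tested after quantile normalization.

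MYC, a transcription factor known to act on ODC1, and its partner MAX moved in opposite directions. MYC read 768 and 757 in high glucose against 589 and 620 in low glucose, and rose by 0.34 ± 0.06 log2 units (adjusted p = 0.0044). MAX fell by 0.61 ± 0.06 (adjusted p = 2.2e-04). MYCN was dim, at 26.2 and 36.4 against 54.3 and 62.5, and its fall of 0.92 ± 0.30 (adjusted p = 0.036) was lost in 7 alternative settings, among them without high glucose replicate 1 (-0.68) and without low glucose replicate 1 or 2 (-1.02 and -0.81).

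Promoters are shown because MYC and MAX bind the E-box CACGTG, which reads the same on both strands. The RefSeq promoter table (GRCh38.p14, 250 bases before to 50 bases after each start) matched 9 of the 10 genes, all but AZIN1, with 17 starts. The E-box letters occurred at 4 of these starts, beside 7.26% of the 35116 starts in the table. These were 1 start each for SRM, ODC1, EIF5A2 and DOHH, where ODC1 has 2 starts. By gene, the letters occurred in 4 of the 9 matched, beside 8.8% of all 27305. They were found at none of the 6 EIF5A starts, the 3 of AMD1, or those of DHPS, OAZ1 and SAT1. Each match below is a description of letters, not a site shown to be bound. The E-box is in capitals, and its first base lies 199 bases before the start in SRM, 29 in ODC1, 187 and 162 in EIF5A2 and 9 in DOHH. ODC1 holds a second match that begins 6 bases after the start and is not printed. The EIF5A stretch is the 100 bases before its most upstream start.
SRM, chr1:11060165-11060264, minus strand: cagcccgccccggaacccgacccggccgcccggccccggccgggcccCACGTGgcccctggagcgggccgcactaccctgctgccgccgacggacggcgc
ODC1, chr2:10448024-10448053, minus strand: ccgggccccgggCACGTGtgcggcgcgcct
EIF5A2, chr3:170908760-170908859, minus strand: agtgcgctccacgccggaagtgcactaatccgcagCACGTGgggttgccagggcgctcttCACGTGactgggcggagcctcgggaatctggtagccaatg
DOHH, chr19:3500675-3500774, minus strand: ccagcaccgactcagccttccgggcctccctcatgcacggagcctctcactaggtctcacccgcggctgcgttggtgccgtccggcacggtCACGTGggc
EIF5A, chr17:7306899-7306998, plus strand: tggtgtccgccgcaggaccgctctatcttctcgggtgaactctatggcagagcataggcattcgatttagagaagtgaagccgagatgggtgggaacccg

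Read beside the signals, SRM, ODC1 and the brightest EIF5A2 probe set were higher in high glucose and hold the letters. DOHH holds them and stood at -0.47. The other matched genes hold none in these windows. Among them EIF5A had the largest difference, DHPS, OAZ1 and SAT1 were lower with the authors' scaling, and AMD1 hardly differed. Whether the letters bear on any of these differences was not tested.

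Of the genes next to EIF5A on chromosome 17, 3 on one side and none on the other passed the filter. GPS2, the next gene on one side, read 928 and 959 in high glucose against 993 and 938 in low glucose (-0.03 ± 0.06 log2 units) and did not pass. NEURL4 beyond it fell by 0.50 ± 0.13 (adjusted p = 0.016), and ACAP1, the gene after that, stood at -0.95 ± 0.40 and did not pass. On the other side YBX2, SLC2A4 and CLDN7 lay below the filter on average.

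The probe sets whose 4-array profile, centred on its own mean in log2 units, came nearest to that of EIF5A 201123_s_at belonged to MYOF, MALAT1 (3 probe sets) and DDAH1, at Euclidean distances of 0.34, 0.40 to 0.44 and 0.60. MYOF, a membrane repair protein, read 620 and 631 in high glucose against 28.1 and 39.0 in low glucose. MALAT1, a long nuclear noncoding RNA, read 4845 and 4892 against 357 and 300 in its nearest probe set. For ODC1 the nearest were NUP205, PSMA3, ECHS1, IDS and CLNS1A, at distances of 0.01 to 0.04. With 4 arrays in 2 groups, such likeness rests almost wholly on the size of the group difference.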

How the data were processed

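RNA of the 4 cultures was hybridised to single-colour Affymetrix arrays as biotin-labelled cRNA, per the labels' protocols. The deposited values are linear signal intensities, 1 per probe set and array, and GCOS, Affymetrix software for reading arrays, is the only tool listed (submitters' processing notes, no version). The authors had scaled them: the 2% trimmed mean was 200.02 on each array. No label gives further steps.

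Of 54675 probe sets, 62 were controls and were left out of the tests. GEO's platform annotation named 1 gene for 41097, several for 1801 and none for 11777, and 41043 were updated through the RefSeq gene table (GRCh38.p14). Tests used log2 signals with no pseudocount. The 27307 probe sets with a mean log2 signal at or above the median (a signal of 32.9) were tested. The fit was limma 3.58.1 in R 4.3.3 (lmFit, eBayes with an intensity trend, no covariate), two-sided, with Benjamini-Hochberg adjustment over all tested probe sets. On simulated data over the same 27307 probe sets, it recovered 1.41% of 71 changes of 0.5 log2 units. Recovery was 51.6% of 62 changes of 1 unit and 80.6% of 67 changes of 2, with 2 false calls of 89. Far more probe sets were called in the data (13759), which eases the adjusted threshold, so these shares do not measure recovery here. A difference that did not pass is still not shown to be absent. For probe sets below the filter no test is given. A gene of a list was read from its brightest probe set. Euclidean distance over the 4 arrays measured profile likeness, and the nearest 5 probe sets of other genes were named, as were 3 neighbours on each side of EIF5A. Lists of up to 8 genes are given in full. Of the longer list, called genes are named with others chosen by role.

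The members and lists were chosen with earlier results of these data known. The number of arrays limits the precision. SATL1, EIF5AL1, EEF1B2 and EEF1G had no probe set naming 1 gene and were not analysed here. Alternatives covered normalization, filter, pseudocount, trend, replicate number, 1 probe set per gene and left-out arrays.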

Additional observations from a re-analysis of the deposited data

How the results depend on the processing

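Over up to 13 alternatives, 265 of 271 values of the 22 probe sets of the 10 genes kept their direction. For the 33 list genes, 373 of 427 values kept their direction and their side of the threshold. Changing the filter, the trend, the replicate block or the 1 probe set per gene rule leaves a difference itself unchanged. Direction was kept there by construction, so the count of 265 is partly fixed in advance. After quantile normalization the differences of OAZ1 215952_s_at (0.090) and of the brightest EEF1A1 (0.095) and EEF2 (0.019) probe sets turned. The cause was not tested. With 1 probe set per gene 7049 were called, since fewer features were tested, and without 1 array 11200 to 12364. With the replicate block the count was 13842. Same-numbered arrays did not deviate together (r = 0.01 across probe sets). With 2 arrays per group this cannot show whether the numbers mark a pairing. Elongation and termination factors called lower went from 3 to 1 after quantile normalization and after median centring, and to between 1 and 3 without 1 array (1 without low glucose replicate 2). MYC factors called lower went from 2 to 1 with each of the 3 normalizations, with no filter and with the stricter filter of 100, and to between 1 and 2 without 1 array (1 without high glucose replicate 1 or either low glucose array). Salvage and S-adenosylmethionine genes called lower by limma went from 3 to 0 after median centring, also 0 at an unadjusted p under 0.05, and to 1 with no intensity trend. Median centring also called 1 further gene each higher, ATP13A2 among polyamine genes (2 in place of 1) and XPO4 among genes handling eIF5A (1). These causes were not tested. Detection calls were not used, and dim signals carry no statement of presence.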
